A study of Mus musculus with 12 samples.

Results

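The proteasome genes of mouse male germ cells are described here, with Psma8, the gene of a ring subunit made in the testis, and Psme4, the gene of the activator PA200, set against the rest. The members were the protein-coding genes whose symbol begins with Psm, a letter from a to g and a digit. The name pattern matched 54 rows of the gene table, 4 of which were pseudogene or other rows and were left out, so 50 of 55450 genes are members. By role they were 7 constitutive alpha ring genes, the testis alpha ring gene Psma8, 7 constitutive beta ring genes, 4 beta ring genes of immune or thymic proteasomes, 6 ATPases of the regulatory particle base, 11 non-ATPase genes of that particle, 5 genes of activators, and 8 genes of assembly chaperones or the inhibitor PI31. The last member, Psmc3ip, matched by name alone: it encodes HOP2, a meiotic recombination factor, and no proteasome subunit.

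RNA of single germ cells from C57BL/6 mouse testes had been sequenced in 12 libraries, 3 in each of 4 groups: Zfp541-/- (knockout, KO) and wild type (WT) at 360 h after retinoic acid, labelled late pachytene, and KO and WT at 260 h, labelled early pachytene. All groups shared 1 synchronising treatment: WIN 18,446, which blocks retinoic acid synthesis, was fed for 7 days from 2 days after birth, and an injection of retinoic acid followed. No label ties a library to an animal of its own, and p-values therefore reflect the variation among the 3 libraries of a group, part of which may be technical. Single cells were picked by mouth pipette, and the deposited values count unique molecular identifiers (UMIs), each marking 1 cDNA molecule captured at its 3′ end. Counts were therefore not divided by gene length.

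The proteasome degrades proteins tagged with ubiquitin. Its core is a barrel of stacked rings, in which the outer alpha rings form the gate and the inner beta rings carry the proteolytic sites; a regulatory particle with an ATPase base binds, unfolds and feeds the substrate, and other activators can take its place at the end of the barrel. In spermatocytes Psma8 protein can stand in for the constitutive subunit encoded by Psma7, and PA200 is known from mouse work for the degradation of acetylated histones in male germ cells.

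The 929 kept cells, of 1152 barcodes, gave 3601518 to 27202665 gene UMIs per library. The authors' cell table placed them in 5 clusters: cluster 1 pre-meiotic, clusters 2 and 3 early pachytene, clusters 4 and 5 late pachytene. Cluster 4 held 220 KO cells of 360 h and cluster 5 held 267 WT cells of 360 h, so genotype and late cluster nearly coincide. At 260 h, KO cells outside cluster 1 were all in cluster 3, as were those of WT library 3, whereas nearly all those of WT libraries 1 and 2 were in cluster 2. These 2 WT libraries stood apart in another way, as did WT library 3 of 360 h in some spermatid genes, given beside the results of that time. The summed level of 6 Leydig cell genes was 97.2 and 58.7 CPM (UMI counts scaled to library size by the TMM method) there and 20.7 CPM in WT library 3, and lay between 9.62 and 24.6 CPM in the other groups. That of 10 macrophage and leukocyte genes was 67.6 and 97.1 CPM in WT libraries 1 and 2, 1.6 CPM in library 3 and 1.23 to 15.2 CPM in the other groups. Pre-meiotic cells numbered 0, 9 and 10 in the KO libraries at 360 h, 2, 2 and 1 in the WT libraries at 360 h, 23, 20 and 18 in the KO libraries at 260 h, and 24, 11 and 17 in the WT libraries at 260 h. In summed libraries, fewer cells of a type and less RNA per cell cannot be told apart. UMIs of Zfp541 itself averaged 146 ± 13.5 CPM in KO and 182 ± 15.6 CPM in WT at 360 h, and 99.1 ± 23.4 CPM in KO and 83.7 ± 45.4 CPM in WT at 260 h (SD, n = 3 each). The labels do not give the deleted part of the gene, so 3′ end counts of it do not check the genotype.

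Psma8 was among the most abundant members in every group. Its UMIs amounted to 624, 675 and 593 CPM in KO and 723, 686 and 620 CPM in WT at 360 h, and to 414, 522 and 276 CPM in KO and 625, 736 and 537 CPM in WT at 260 h. The KO and WT values overlapped at 360 h, and at 260 h every KO library was below every WT library. By mean CPM, Psma8 ranked 3 in KO and 3 in WT at 360 h, and 4 in KO and 2 in WT at 260 h, of 50 members. Psmc3, an ATPase of the base, ranked 1 at 360 h in both genotypes, with 1110 CPM in KO and 1441 CPM in WT. Psmb6, a catalytic beta ring gene, ranked 2 there in both. Psmd2, which encodes the base scaffold, ranked 1 at 260 h in both, with 488 CPM in KO and 671 CPM in WT. At the other end, Psmb8, the inducible counterpart of Psmb5 in immune cells, had 37 UMIs in 29 cells and did not pass the filter on low counts, which left 49 members to be tested among 20279 genes.

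Against the 14 constitutive core genes, Psma8 was high in each of the 12 libraries. Its CPM was 2.55, 3.07 and 2.59 times their geometric mean in KO and 3.94, 2.98 and 2.88 times in WT at 360 h, and 1.66, 1.78 and 1.86 times in KO and 2.03, 3.68 and 2.71 times in WT at 260 h. The 3 lowest ratios were those of the KO libraries at 260 h. Psme4 lay below that mean in every library but those of WT at 360 h: 0.536, 0.529 and 0.559 times in KO and 1.89, 1.48 and 1.39 times in WT at 360 h, and 0.515, 0.454 and 0.707 times in KO and 0.422, 0.737 and 0.881 times in WT at 260 h. The core genes as a group summed to 3939 ± 140 CPM in KO and 3685 ± 405 CPM in WT at 360 h, and 3813 ± 1197 CPM in KO and 3933 ± 807 CPM in WT at 260 h (SD, n = 3 each). These ratios and sums describe the libraries and were not tested.

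**Figure D1:**
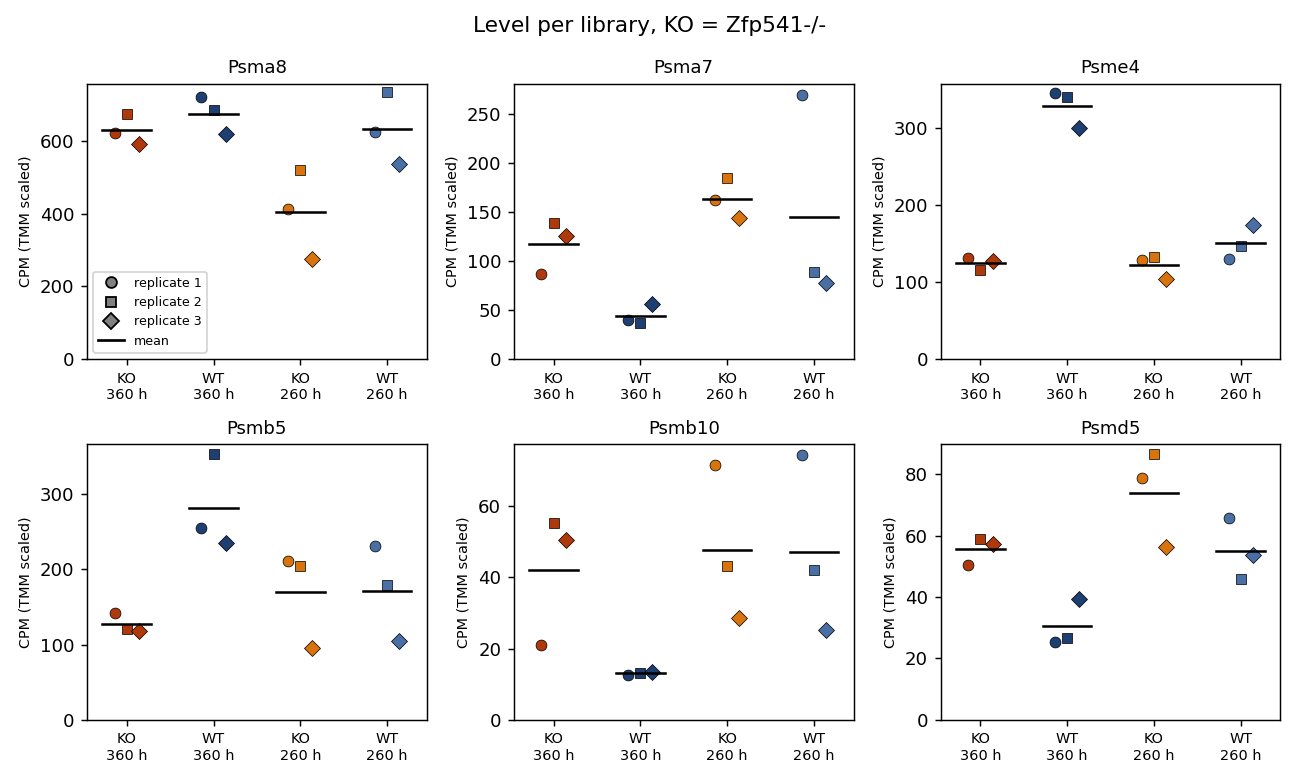
Level of 6 proteasome genes in each library, in CPM after TMM scaling, with KO left of WT and 360 h left of 260 h; each symbol is 1 library, its shape gives the replicate number, and lines are means of 3. Psme4 stands at 300 to 346 CPM in WT at 360 h and at or below 175 CPM in the other 9 libraries.

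The authors' clusters separated the alpha ring counterparts. In pre-meiotic cells of 260 h, Psma8 had 151, 125 and 103 CPM in KO and 200, 429 and 265 CPM in WT. These are CPM of the gene UMIs of the cells of 1 library in 1 cluster, without TMM scaling, and the KO and WT ranges did not overlap. Psma7 had 435, 457 and 415 CPM in KO and 548, 369 and 295 CPM in WT in the same cells. It exceeded Psma8 in all of these libraries but WT library 2. In pre-meiotic cells of 360 h, KO libraries 2 and 3 had 306 and 323 CPM of Psma8, within the WT range of 260 h. Psma7 had 366 and 340 CPM there. In the pachytene clusters Psma8 exceeded Psma7 in every library shown. In cluster 3, Psma8 had 572, 691 and 519 CPM in KO and 624 in WT library 3, and Psma7 had 72.5, 63.1 and 73.9 in KO and 37.6 in that WT library. WT libraries 1 and 2, in cluster 2, had 1129 and 919 CPM of Psma8, above every KO library in cluster 3. In the late clusters, Psma8 had 573, 752 and 650 CPM in KO (cluster 4) and 610, 496 and 516 in WT (cluster 5). The genotypes overlapped for Psma8 there, while for Psma7 all KO libraries, at 80.1, 120 and 104 CPM, were above all WT libraries, at 26.6, 20.7 and 46.3. The clusters were made from the same cells' expression, so these values describe them and are not a test.

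The activator genes split in a like manner. Psme1 and Psme2 encode the subunits of PA28 alpha and beta, which interferon induces, and both were mainly pre-meiotic transcripts here. Psme1 averaged 228 CPM in KO and 247 in WT in pre-meiotic cells of 260 h, and 8.88 in KO and 3.61 in WT in the late clusters. In cluster 3 it averaged 29.7 in KO and was 15.6 in WT library 3. WT libraries 1 and 2, in cluster 2, had 31.4 and 19.7. Psme2 averaged 195 in KO and 236 in WT in those pre-meiotic cells and 11.8 in KO and 4.47 in WT in the late clusters. Its near-identical copy Psme2b could share reads with it, so values of both are uncertain. Psme3, the gene of the nuclear activator PA28 gamma, averaged 203 in KO and 215 in WT in pre-meiotic cells of 260 h. It averaged 61.6 in KO and 51.8 in WT in the late clusters. In early pachytene cells of 260 h it averaged 124 in KO (cluster 3) and 122 in WT (cluster 2). In WT library 3, in cluster 3, it was 209, near the pre-meiotic value. Psme4 ran the other way in WT, with 110.6 CPM in pre-meiotic cells, 171 in cluster 2 and 262 in cluster 5. In cluster 3 it was 196 in WT library 3 alone. In KO, Psme4 was 100.2 in pre-meiotic cells, 154 in cluster 3 and 126 in cluster 4.

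**Figure D2:**
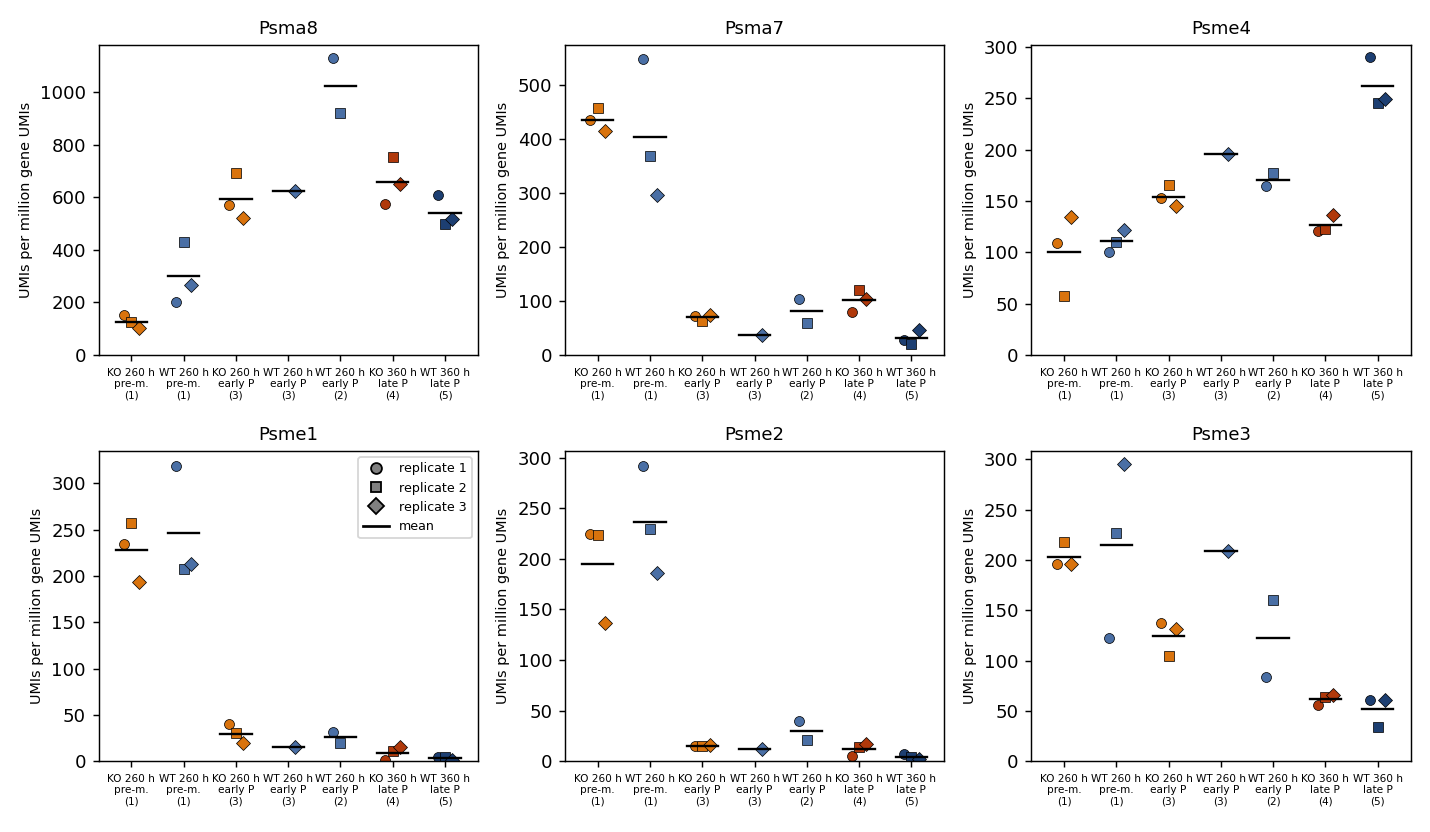
CPM of the gene UMIs of the cells of 1 library in 1 of the authors' clusters (number in brackets; pre-m., pre-meiotic; P, pachytene), for Psma8, Psma7 and 4 activator genes; symbols are libraries with at least 5 such cells and lines are means. Psma7, Psme1 and Psme2 are highest in pre-meiotic cells, and Psme4 is highest in late WT cells, at 246 to 290 CPM against 120 to 136 in late KO cells.

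The UMIs of Psma8 made up most of those of Psma7 and Psma8 together. Their share was 87.7%, 82.9% and 82.5% in KO and 94.7%, 94.9% and 91.7% in WT at 360 h, out of 5645 to 15267 UMIs per library. At 260 h it was 71.9%, 73.8% and 65.7% in KO and 69.9%, 89.3% and 87.4% in WT. The widest Wilson 95% confidence interval of a single library there, in KO library 3, ran from 63.6% to 67.7%; such intervals cover counting error only. Every KO library was below every WT library at 360 h, and at 260 h WT library 1 lay among the KO libraries. The share averaged 84.4 ± 2.90% in KO and 93.8 ± 1.77% in WT at 360 h (SD, n = 3 each), with p = 0.1 by a two-sided exact permutation test, the smallest p that 3 against 3 libraries allow. It averaged 70.5 ± 4.26% in KO and 82.2 ± 10.7% in WT at 260 h (exact permutation test, p = 0.3). Between times the groups did not overlap in either genotype, with p = 0.1 by the exact test in each. After Benjamini-Hochberg adjustment over the 8 exact tests of this kind the p-values were 0.133 for the contrasts without overlap and 0.343 for the genotypes at 260 h, so none passed.

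In pre-meiotic cells of 260 h Psma8 took 25.7%, 21.5% and 19.9% of the UMIs in KO and 26.8%, 53.8% and 47.3% in WT. The means were 22.4 ± 3.0% in KO and 42.6 ± 14.1% in WT (SD, n = 3 each), and WT library 1 lay near the KO libraries. In pre-meiotic cells of 360 h it took 45.5% and 48.7% in KO libraries 2 and 3, within the WT range of 260 h. Without pre-meiotic cells, the share was 87.7%, 86.1% and 86% in KO and 95.8%, 96% and 91.8% in WT at 360 h, and 88.7%, 91.6% and 87.5% in KO and 91.9%, 94.0% and 94.3% in WT at 260 h. The KO libraries were below the WT libraries at both times in this count. Between times in KO the difference was then -2.71 percentage points, the reverse of the 13.9 percentage points over all kept cells.

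Psme4 took 66.4%, 42.2% and 44.2% of the UMIs of Psme1 to Psme4 in KO and 76.9%, 82.1% and 79.2% in WT at 360 h. At 260 h the share was 30.2%, 29.4% and 32.4% in KO and 26.1%, 38.9% and 36.9% in WT. The 360 h groups did not overlap, those of 260 h did. The means were 50.9 ± 13.4% in KO and 79.4 ± 2.57% in WT at 360 h (SD, n = 3 each; exact permutation test, p = 0.1) and 30.7 ± 1.57% in KO and 33.9 ± 6.92% in WT at 260 h (exact test, p = 0.4). KO library 1 at 360 h, the highest of its group, held no pre-meiotic cell. Without pre-meiotic cells the 360 h shares were 66.4%, 58.0% and 57.8% in KO and 80.1%, 85.1% and 79.3% in WT. Adjusted over the 8 exact tests, no contrast passed; the lowest value was 0.133.

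The inducible beta genes Psmb8, Psmb9 and Psmb10 replace Psmb5, Psmb6 and Psmb7 in the proteasomes of immune cells. They took 2.22%, 6.86% and 6.34% of the UMIs of these 6 catalytic genes in KO and 1.47%, 1.08% and 1.54% in WT at 360 h, so every KO library was above every WT library. At 260 h they averaged 7.85 ± 1.80% in KO and 7.25 ± 1.16% in WT (SD, n = 3 each). In late pachytene cells alone the share was 4.35 ± 1.85% in KO and 1.27 ± 0.316% in WT at 360 h. Psmb10 supplied most of these UMIs: Psmb9 averaged 1.78 CPM in KO and 0.579 CPM in WT at 360 h and was not called (1.61 ± 0.714 on the log2 scale, edgeR adjusted p = 0.12). The share was not tested.

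**Figure D3:**
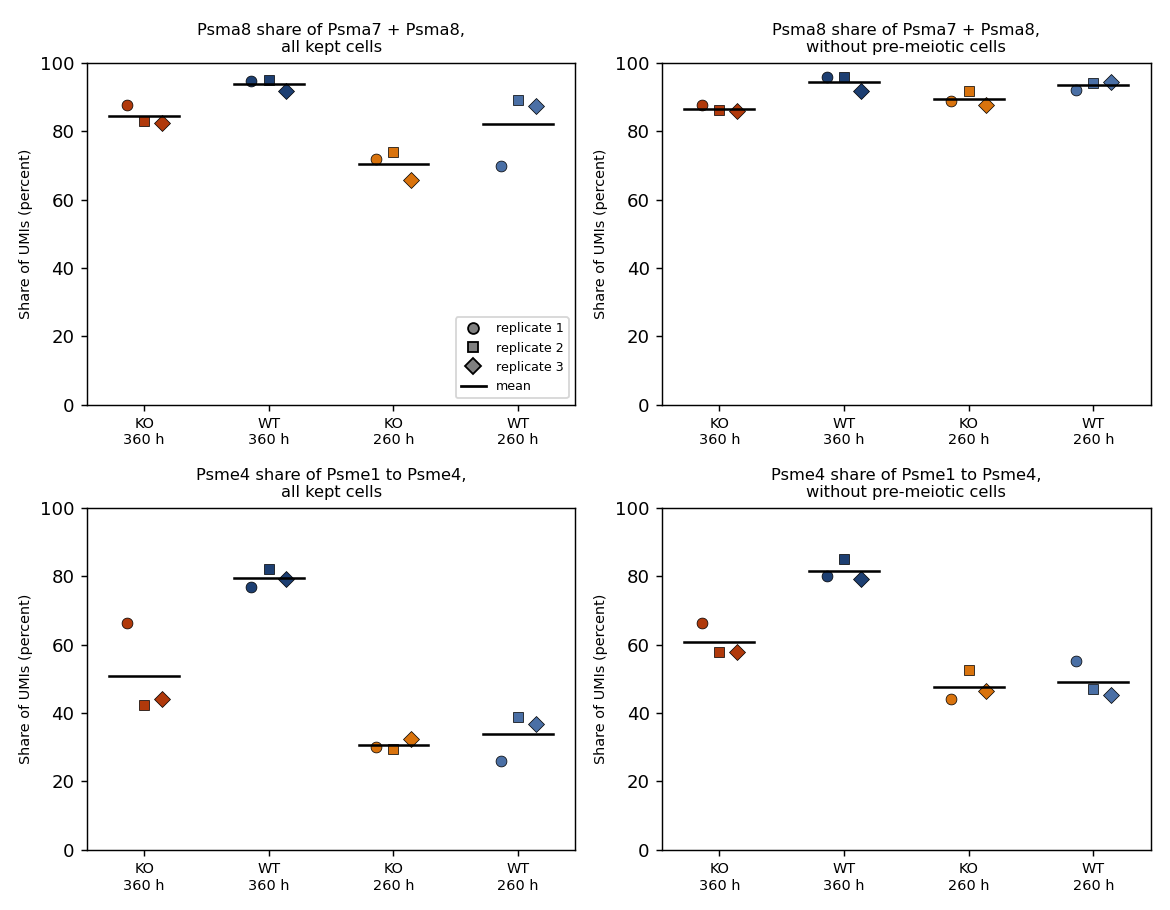
Share of Psma8 in the UMIs of Psma7 and Psma8 (top) and of Psme4 in those of Psme1 to Psme4 (bottom), in percent per library, over all kept cells (left) and without pre-meiotic cells (right), KO left of WT; lines are means of 3 libraries. Without pre-meiotic cells the Psma8 shares of KO lie between 86% and 91.6% and those of WT between 91.8% and 96%.

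At 360 h, loss of Zfp541 went with a lower level of Psme4. It had 131, 116 and 128 CPM in KO libraries, against 346, 340 and 300 CPM in WT libraries, so the groups were far from overlapping. The log2 fold change was -1.39 ± 0.224 (SE), with an adjusted p of 4e-04 by edgeR's quasi-likelihood test with Benjamini-Hochberg adjustment over all genes tested. In late pachytene cells alone it was -1.22 with an adjusted p of 0.000516. The call held in each of the 17 alternative settings run, with log2 fold changes between -1.90 and -1.16 and adjusted p of at most 0.00693.

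Psmb5, the gene of the beta subunit with chymotrypsin-like activity, fell too, with 142, 120 and 118 CPM in KO and 255, 353 and 235 CPM in WT. Its log2 fold change was -1.15 ± 0.335 (SE; edgeR adjusted p = 0.0221). Psma7, the constitutive counterpart of Psma8, rose: it had 87.2, 139 and 126 CPM in KO and 40.3, 37.1 and 55.8 CPM in WT, with a log2 fold change of 1.4 ± 0.398 (SE; adjusted p = 0.0193). Psmb10, the inducible counterpart of Psmb7, had 20.9, 55.1 and 50.5 CPM in KO and 12.5, 13.2 and 13.4 CPM in WT. It rose by 1.70 ± 0.448 on the log2 scale (adjusted p = 0.0128), and the lowest KO library was the one without pre-meiotic cells. That library was also the lowest in cluster 4 cells alone, at 19.2 CPM of Psmb10 against 44.8 and 42.1 CPM. Psmd5, a chaperone of base assembly, had 50.5, 59.0 and 57.4 CPM in KO and 25.5, 26.6 and 39.4 CPM in WT, and rose by 0.87 ± 0.275 (adjusted p = 0.033). For all of these genes the KO and WT libraries did not overlap.

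Markers of stage differed between the same libraries. The summed level of 7 late pachytene genes was 312 to 344 CPM in KO and 1063 to 1401 CPM in WT at 360 h, and 139 to 288 CPM in KO and 275 to 331 CPM in WT at 260 h. That of 8 spermatid genes was 217 to 277 CPM in KO and 1144 to 1507 CPM in WT at 360 h, and that of 8 leptotene and zygotene genes was 1132 to 1334 CPM in KO and 366 to 524 CPM in WT. Every listed gene of these 3 lists had UMIs in both groups of 360 h. WT library 3 of 360 h stood apart in some of the spermatid genes. Tnp1 had 830 UMIs there and 4 and 3 in WT libraries 1 and 2, Prm1 586 against 18 and 8, and Tssk2 667 against 9 and 6. Its depth was 27202665 gene UMIs, against 13092560 and 14799278. Zpbp was higher there too, at 288 CPM against 185 and 165 CPM. Acrbp was lower, at 442 CPM against 627 and 880 CPM, and so was Actl7b, at 14.2 CPM against 19.1 and 16.7 CPM. The whole list summed to 1184 CPM in that library, against 1144 and 1507 CPM. The same library had the highest Psmd8 of its group, at 490 CPM against 307 and 323 CPM, and the lowest Psma8 share. Without it the 5 calls between KO and WT at 360 h held, with Psme4 at -1.47 (edgeR adjusted p = 0.000857). The part of these differences in the values of Psme4, Psmb5, Psma7, Psmb10 and Psmd5 was not tested.

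The called genes were 5 of 49 members tested, 3 higher and 2 lower, and 10 members had an unadjusted p under 0.05. The split was 0 higher and 2 lower with spike-in scaling and 6 higher and 2 lower with upper-quartile scaling, which called 18.4% and 22.5% of all genes. Of all 20279 genes tested, 22.5% were called in this comparison, 8.93% higher and 13.5% lower, so the members' count lay under the background. The median log2 fold change was 0.01 over the members and 0.03 over all genes tested. By role, 1 of 7 constitutive alpha genes was higher, 1 of 7 constitutive beta genes lower, 1 of 3 tested immune or thymic beta genes higher, 1 of 5 activator genes lower and 1 of 8 chaperone or inhibitor genes higher. Of 6 ATPases and 11 non-ATPase genes none was called; Psmc6 and Psmd8 had an unadjusted p under 0.05 and adjusted p of 0.107 and 0.0805. Psma8 differed by -0.10 ± 0.249 on the log2 scale (adjusted p = 0.806), and its sign turned in 4 settings, among them late pachytene cells alone, where it was 0.12. Psme1 (1.77 ± 0.996, adjusted p = 0.233), Psme2 (1.65 ± 0.788, adjusted p = 0.16) and Psme3 (0.01 ± 0.298, adjusted p = 0.98) were not called. In 16 of 49 members the KO and WT libraries did not overlap, against 44.2% of all genes tested.

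KO libraries 2 and 3 of 360 h, which held pre-meiotic cells, had more Psma7 and Psmb10 than KO library 1. The order was the same in cluster 4 cells alone. Psma7 had 80.1, 120 and 104 CPM in KO libraries 1, 2 and 3 there, and Psmb10 had 19.2, 44.8 and 42.1 CPM. Without pre-meiotic cells the log2 fold changes of Psma7 and Psmb10 were 1.45 (edgeR adjusted p = 0.00628) and 1.59 (adjusted p = 0.0304). The sum of 8 Sertoli cell genes was 64.7, 218 and 198 CPM in KO and 90.5, 80.2 and 41.3 CPM in WT at 360 h. That of 7 peritubular and endothelial genes was 23.1, 22.2 and 141 CPM in KO and 26.8, 68.4 and 27.1 CPM in WT. The part of these transcripts in the members' values was not tested. With spike-in scaling, the calls of Psma7 (log2 fold change 0.81, adjusted p = 0.257), Psmb10 (1.20, adjusted p = 0.123) and Psmd5 (0.26, adjusted p = 0.761) were lost. Single libraries mattered for all but Psme4, and the count of called members was 1 without KO library 2 or 3, 8 without KO library 1, 3 without WT library 1 and 2 without WT library 2. Of all genes tested in those fits, 12.5% were called without KO library 2, 11.8% without KO library 3, 18.8% without KO library 1, 17.3% without WT library 1 and 15.2% without WT library 2. Psma7 lost its call without WT library 1 or 2 or KO library 2 or 3 (adjusted p 0.0657 to 0.0851), Psmb5 without WT library 2 or KO library 2 or 3 (0.0556 to 0.113), Psmb10 without KO library 2 or 3 (0.0572 to 0.0711) and Psmd5 without any library but WT library 3 (0.0572 to 0.152). Psmd5 was also not called with no filter (0.193) or with the replicate block (0.0564).

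**Figure D4:**
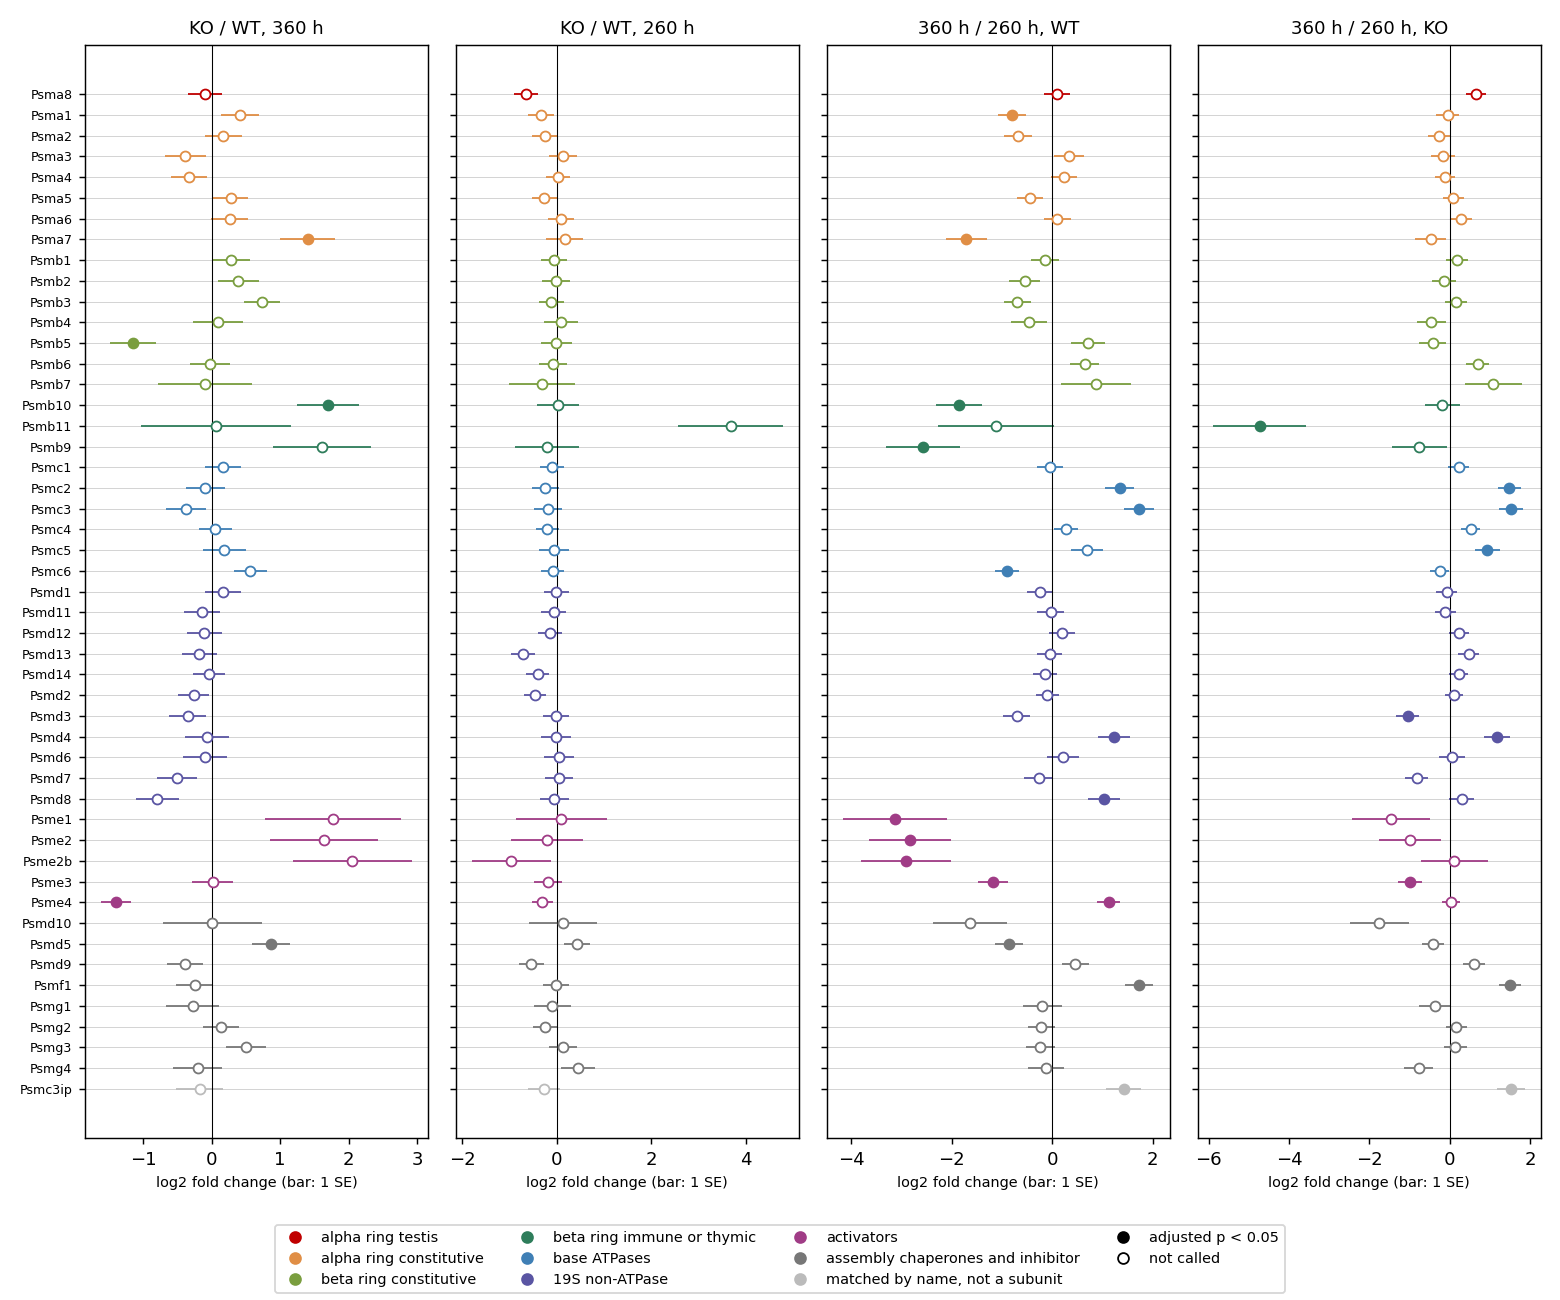
Log2 fold change of each tested member, with 1 SE, for KO over WT at 360 h, KO over WT at 260 h, 360 h over 260 h in WT and 360 h over 260 h in KO; colours give the role and filled points an adjusted p under 0.05. At 360 h, Psme4 and Psmb5 are called lower and Psma7, Psmb10 and Psmd5 higher, and at 260 h no point is filled.

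The promoters of Psme4 and Psmb5, which fell in KO, and of Psma7, which rose, are shown to compare their motifs. They run from 250 bases before to 50 bases after the annotated RefSeq start, 5′ to 3′ on the gene's strand, in build GRCm38.p6. Psme4 lies on the plus strand at chr11:30771525-30771824, Psmb5 on the minus strand at chr14:54617946-54618245 and Psma7 on the minus strand at chr2:180042415-180042714. Capitals mark matches, on either strand, to any of 5 motifs: CCAAT, the cyclic AMP response element TGACGTCA, the antioxidant response element core TGACNNNGC that NFE2L1 and NFE2L2 bind with small MAF proteins, the MYB site TAACNG and the ETS site CCGGAAG.
Psme4: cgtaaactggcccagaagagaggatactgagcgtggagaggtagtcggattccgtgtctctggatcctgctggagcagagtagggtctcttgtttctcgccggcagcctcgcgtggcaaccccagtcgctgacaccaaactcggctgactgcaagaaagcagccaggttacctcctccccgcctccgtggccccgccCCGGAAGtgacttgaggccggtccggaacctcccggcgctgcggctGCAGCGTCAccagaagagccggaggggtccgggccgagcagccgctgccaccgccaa
Psmb5: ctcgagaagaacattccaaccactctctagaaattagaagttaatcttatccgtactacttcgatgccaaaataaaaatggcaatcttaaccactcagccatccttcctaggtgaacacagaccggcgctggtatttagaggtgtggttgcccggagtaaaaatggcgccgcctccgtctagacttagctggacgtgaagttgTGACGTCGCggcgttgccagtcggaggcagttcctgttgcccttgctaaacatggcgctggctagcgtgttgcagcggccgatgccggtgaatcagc
Psma7: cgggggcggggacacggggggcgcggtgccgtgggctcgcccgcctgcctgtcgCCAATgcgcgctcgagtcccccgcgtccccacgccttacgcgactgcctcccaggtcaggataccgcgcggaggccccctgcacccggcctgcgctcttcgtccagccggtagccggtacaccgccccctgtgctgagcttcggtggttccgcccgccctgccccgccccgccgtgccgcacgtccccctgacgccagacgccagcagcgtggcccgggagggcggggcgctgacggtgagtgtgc
Psme4 and Psmb5 each held 1 match to the antioxidant core, Psme4 also 1 to the ETS site, and Psma7 1 to CCAAT. The antioxidant core was in 6 of 45 member promoters (13.3%) and in 12.4% of all 32851 promoters of the table. The ETS site was in 16 of 45 member promoters (35.6%) and in 8.86% of all, CCAAT in 33.3% and 37.4%, the MYB site in 17.8% and 23.3%, and the cyclic AMP element in 0 of 45 and 1.79%. The 45 promoters belong to 42 members. A match is a run of letters and was not tested as a binding site.

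At 260 h, no member was called between KO and WT by edgeR, against 1.89% of all genes tested (0.582% higher and 1.31% lower); 3 members, Psma8, Psmb11 and Psmd13, had an unadjusted p under 0.05. limma-voom called none, and DESeq2 called Psmb11. Psma8 differed by -0.65 ± 0.25 on the log2 scale (SE; adjusted p = 0.259), and by -0.59 in early pachytene cells alone (adjusted p = 0.376). Psmd13, a non-ATPase gene of the regulatory particle, had 80.1, 74.7 and 66.5 CPM in KO and 99.3, 126 and 136 CPM in WT, a log2 difference of -0.71 ± 0.259 (adjusted p = 0.226). Both genes had all KO libraries below all WT libraries. Psmd2 also did, with 496, 560 and 407 CPM in KO and 623, 655 and 734 CPM in WT, and Psmb11 had all KO libraries above. These were 4 of 49 members without overlap, against 14.6% of all genes tested. Psme4 had 129, 133 and 105 CPM in KO and 130, 147 and 175 CPM in WT (-0.30 ± 0.221, adjusted p = 0.651). Psma7 had 162, 185 and 144 CPM in KO and 270, 88.6 and 77.4 CPM in WT (0.18 ± 0.391, adjusted p = 0.914), and WT library 1, the highest, was the one with most pre-meiotic cells of its group. Psme1, Psme2 and Psme3 had adjusted p of 0.984, 0.958 and 0.874 by edgeR. Markers of stage differed here too. The summed level of 7 early pachytene genes was 1448 to 1973 CPM in KO and 2358 to 4328 CPM in WT at 260 h. It was higher at 360 h, at 4832 to 6441 CPM in KO and 5455 to 8562 CPM in WT. The list is therefore not particular to early pachytene cells here. Of these genes 4 were called lower in KO at 260 h (57.1%), against 1.31% of all genes tested. The part of this difference in the values of Psma8 and the other members was not tested.

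In WT, 17 of 49 members were called between 360 h and 260 h, 7 higher and 10 lower, against 39.9% of all genes tested (20.9% higher and 18.9% lower). The split was 11 higher and 3 lower with spike-in scaling and 7 higher and 16 lower with upper-quartile scaling. The median log2 change was -0.14 over the members and -0.11 over all genes. All 5 activator genes were called. Psme4 rose by 1.12 ± 0.223 on the log2 scale (SE; adjusted p = 0.0011). Psme3, with 75.4, 49.7 and 73.8 CPM at 360 h and 88.9, 147 and 213 CPM at 260 h, fell by 1.18 on that scale (SE 0.301; adjusted p = 0.00616). Psme1 had 11.4, 13.2 and 2.12 CPM at 360 h and 144, 40.2 and 46.7 CPM at 260 h, and fell by 3.13 (SE 1.04; adjusted p = 0.0336). Psme2 fell by 2.82 (SE 0.819; adjusted p = 0.0164) and Psme2b by 2.90 (SE 0.896; adjusted p = 0.0183). Psma7 had a lower CPM in every library of 360 h than in any of 260 h, and fell by 1.70 (SE 0.402; adjusted p = 0.00363), while Psma8 differed by 0.10 ± 0.249 (adjusted p = 0.784).

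Of the 6 base ATPases, Psmc3 and Psmc2 rose in WT and Psmc6 fell. Psmc3 had 1414, 1933 and 975 CPM at 360 h and 554, 425 and 332 CPM at 260 h, a rise of 1.72 ± 0.303 (adjusted p = 0.000454). Psmf1, the gene of the inhibitor PI31, had 161, 230 and 155 CPM at 360 h and 56.8, 53.4 and 54.3 CPM at 260 h, a rise of 1.73 ± 0.277 (adjusted p = 0.000218). Psmc2, another base ATPase, rose by 1.34 (adjusted p = 0.00211), Psmd4, a ubiquitin receptor, by 1.23 (adjusted p = 0.0068), Psmd8 of the lid by 1.03 (adjusted p = 0.0156) and Psmc3ip by 1.42 (adjusted p = 0.00472). The others that fell were Psmb10 by 1.85 (adjusted p = 0.00456), Psmb9 by 2.57 (0.0111), the base ATPase Psmc6 by 0.89 (0.00842), Psmd5 by 0.85 (0.0223) and Psma1, an alpha ring gene, by 0.80 (0.0338). Of the constitutive beta genes, Psmb3 (-0.70, adjusted p = 0.0501), Psmb5 (0.71, 0.0993) and Psmb6 (0.65, 0.0902) had an unadjusted p under 0.05. In 25 of 49 members the libraries of both times did not overlap, against 50.6% of all genes tested.

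The 260 h side of this contrast rests on libraries that differ in pre-meiotic and somatic transcripts. Without pre-meiotic cells, Psma7 (-0.68, adjusted p = 0.132), Psmb10 (-0.98, 0.139), Psmb9 (-2.22, 0.0516), Psmd5 (-0.52, 0.171), Psme2b (-2.06, 0.0782) and Psmc3ip (0.92, 0.0605) lost their calls and Psme4 kept its call at 0.85 (0.0077). With spike-in scaling Psma7 (-0.91, adjusted p = 0.162), Psme3 (-0.84, 0.261), Psmb10, Psmb9, Psma1, Psmc6 and Psmd5 lost theirs (0.0577 to 0.699). With no filter Psma1, Psmc6, Psmd5 and Psme1 were not called (0.0816 to 0.168), nor were Psma1 (0.0515) and Psme1 (0.0629) with the replicate block. Without WT libraries 1 and 2 of 260 h, which leaves 1 library assumed to vary like the other groups, 6 members were called: Psmc3, Psmf1, Psmd4, Psmc2 and Psmc3ip higher and Psme3 lower. Psme4 was then at 0.90 with an adjusted p of 0.121, and 18.3% of all genes tested were called. Without WT library 2 of 360 h 11 members and 28.2% of all genes tested were called. Psma7 was at -0.90 (0.0278) without WT library 1 of 260 h. Leaving out 1 library ended the calls of Psma1 (all but WT library 2 of 260 h, adjusted p 0.0843 to 0.115), Psme1 (all but that library, 0.0521 to 0.128), Psmd5 (libraries 1 and 3 of 260 h and 1 and 2 of 360 h, 0.0518 to 0.12), Psmd8 (1 and 2 of 260 h and 3 of 360 h, 0.0522 to 0.0764), Psme2 (1 of 260 h and 2 and 3 of 360 h, 0.0566 to 0.0666), Psme2b (1 of 260 h and 2 of 360 h, 0.0547 and 0.0975), Psmb9 (2 of 360 h, 0.0559) and Psmc6 (1 of 360 h, 0.051).

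In KO, 9 of 49 members were called between 360 h and 260 h, 6 higher and 3 lower, against 23.5% of all genes tested (13.3% higher and 10.2% lower); with spike-in scaling the split was 6 and 1. Psme4 was not called: it had 131, 116 and 128 CPM at 360 h and 129, 133 and 105 CPM at 260 h, overlapping ranges with a log2 difference of 0.03 ± 0.22 (adjusted p = 0.931). Psmc3 rose by 1.52 ± 0.301 (adjusted p = 0.00226), Psmf1 by 1.49 ± 0.275 (adjusted p = 0.0014), Psmc2 by 1.48 ± 0.292 (adjusted p = 0.0022), Psmd4 by 1.17 ± 0.319 (adjusted p = 0.0153), Psmc3ip by 1.52 ± 0.35 (adjusted p = 0.00597) and Psmc5, an ATPase, by 0.93 ± 0.319 (adjusted p = 0.0447). Psmd3, a lid gene, fell by 1.05 (SE 0.276; adjusted p = 0.0126), Psme3 by 0.98 (SE 0.3; adjusted p = 0.0278) and Psmb11, the thymic beta gene, by 4.73 (SE 1.15; adjusted p = 0.00819). Psma8 differed by 0.64 ± 0.25 (adjusted p = 0.0742) with no overlap between times, and was called by DESeq2 (adjusted p = 0.0327), by limma-voom (0.0411), with the 10 CPM filter (0.0229), in thinned cells (0.0463), with the replicate block (0.0417) and without KO library 2 of 260 h, where the difference was 0.97 (0.0325). Without pre-meiotic cells it was 0.23 (adjusted p = 0.574), and the pachytene clusters averaged 658 CPM at 360 h (cluster 4) and 594 CPM at 260 h (cluster 3). With 1 of the other 5 libraries left out, or with no filter, spike-in or upper-quartile scaling or the compared groups alone, the gene was not called (0.053 to 0.191). Psma7 differed by -0.48 ± 0.391 (adjusted p = 0.403). The activators Psme1 (-1.46, 0.31) and Psme2 (-0.99, 0.386) and the immune genes Psmb9 (-0.76, 0.45) and Psmb10 (-0.18, 0.798) were not called either. Psme3 also lost its call with spike-in scaling (0.397), with no filter (0.149) and without pre-meiotic cells (0.0543), and Psmd3 with spike-in scaling (0.317) and with no filter (0.107). The 360 h and 260 h libraries did not overlap in 18 of 49 members, against 46% of all genes tested. Leaving out 1 library ended the calls of Psmc5 (all but KO library 2 of 260 h, adjusted p 0.0643 to 0.126), Psmd3 (1 and 2 of 260 h, 2 and 3 of 360 h, 0.0523 to 0.0893), Psme3 (all but 3 of 260 h, 0.0667 to 0.135) and Psmb11 (2 of 260 h, 0.0576). The count of called members was 6 without KO library 1 of 260 h or KO library 2 or 3 of 360 h, fits in which 14.1%, 14.8% and 14.6% of all genes tested were called.

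Whether the genotype effect differed between times was tested as an interaction. No member was called by edgeR, against 5.08% of all genes tested (2.3% higher and 2.78% lower); 7 had an unadjusted p under 0.05, limma-voom called none and DESeq2 called Psme4. The estimate for Psme4 was -1.09 ± 0.312 on the log2 scale (adjusted p = 0.0568). It was -1.15 by DESeq2 (adjusted p = 0.00217), -1.08 with the 10 CPM filter (0.0137) and -1.13 without KO library 3 of 260 h (0.0468), which all called it. It was not called in the other 19 settings, and was -0.68 (adjusted p = 0.521) without WT libraries 1 and 2 of 260 h. It was 1.22 ± 0.555 for Psma7 (adjusted p = 0.224) and 0.55 ± 0.352 for Psma8 (adjusted p = 0.409). The genotype and time contrasts share libraries, so their values are given side by side and were not correlated.

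Other genes of the pathway came from lists of 10 associated factors, 9 tested substrate shuttles and unfoldase genes, 6 transcriptional regulators and 6 ubiquitin and E1 genes. In KO against WT at 360 h, 1 associated factor was higher and 1 lower, 0 shuttles higher and 2 lower, 2 regulators higher and 1 lower, and 1 E1 gene higher. These were 8 of 31 tested genes, or 25.8%, against 22.5% of all genes tested, so the share lay near the background. Ecpas, an adaptor of the proteasome, averaged 208 ± 7.07 CPM in KO and 87.0 ± 19.3 CPM in WT (SD, n = 3 each; log2 fold change 1.26, edgeR adjusted p = 0.00108). Uba6, an enzyme that activates ubiquitin, averaged 121 ± 15.8 CPM in KO and 33.6 ± 8.23 CPM in WT (1.85, adjusted p = 0.00016). Nfe2l2, a stress-induced activator of proteasome genes, averaged 18.8 ± 7.23 CPM in KO and 4.04 ± 1.72 CPM in WT (2.24, adjusted p = 0.00657), and its partner Mafk rose by 2.16 (adjusted p = 0.0215). The shuttle genes Ubqln1 (-1.4, adjusted p = 0.00576) and Rad23b (-1.25, adjusted p = 0.00806), the nuclear import factor Akirin2 (-1.43, adjusted p = 0.0156) and Ngly1, whose enzyme processes NFE2L1 (-0.90, adjusted p = 0.036), fell. At 260 h none of the genes on these lists was called between genotypes by edgeR; Mybl1 (-0.71, adjusted p = 0.297) and Ecpas (0.48, 0.385) had an unadjusted p under 0.05.

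Between times in WT, 10 of 31 tested genes of these lists were called, or 32.3%, against 39.9% of all genes tested. Of these, 3 were higher and 7 lower. Of associated factors 1 was higher and 1 lower, and of shuttle or unfoldase genes 1 was higher and 1 lower. Of regulators 1 was higher and 3 lower, and 2 E1 genes were lower. Ngly1 rose by 2.0 (adjusted p = 0.000138) and Uchl5, a deubiquitinase of the regulatory particle, by 0.70 (0.0402). Uba6 fell by 1.78 (0.000123), Nfe2l2 by 2.79 (0.000931), Mafg by 3.01 (0.00213), Uba1 by 3.08 (0.00294), Ecpas by 0.71 (0.0214) and Ubqln2 by 1.75 (0.0264) in the same contrast.

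Between times in KO, 11 of 31 tested genes of these lists were called, or 35.5%, against 23.5% of all genes tested. Of these, 2 were higher and 9 lower, against 13.3% and 10.2% of all genes tested. Of associated factors 2 were lower, and of shuttle or unfoldase genes 1 was higher and 3 lower. Of regulators 1 was higher and 2 lower, and 2 ubiquitin or E1 genes were lower. Ngly1 rose by 1.04 (adjusted p = 0.0182). Nfe2l1, the main activator of proteasome genes when proteasomes are inhibited, fell by 2.23 (0.00294), Mafg by 2.03 (0.0283), Txnl1 by 1.52 (0.00679), Zfand5 by 1.04 (0.0438), Ubqln1 by 1.11 (0.0221), Rad23b by 0.96 (0.033) and Uba1 by 2.42 (0.0176). The genotype effects of Uba6 (1.86 as 360 h minus 260 h, adjusted p = 0.00835) and Rad23b (-1.62, 0.0407) differed between times.

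Among members, the pattern most like that of Psma8 over the 12 libraries was that of Psmc4 (Pearson r of log2 CPM 0.80), then Psmc3ip (0.78) and Psmb6 (0.73). For Psme4 it was that of Psmd8 (0.80), Psmd9 (0.73) and Psmb5 (0.69). The points share group and depth, and r is given as a measure of likeness only. Of the members, 15 overlap exons of another gene, among them Psmc3ip with Mlx over 385 bases and Psmb5 with Mir686 over 109 bases. The strand setting of the counting is unknown here, which makes the values of those members uncertain.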

How the data were processed

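The authors deposited raw UMI counts per gene and barcode for 12 libraries of testis germ cells, and a cell table whose other columns (library, cluster, class) were used as given. No doublet caller was run. Per the submitters' processing notes, featureCounts 1.6.4, STAR 2.5.3a on mm10 and UMI-tools 1.0.0 were used; their order, strand setting and cell filter are not known here. Counts of the 929 kept cells were summed per library; 92 spike-ins were left out of library sizes. edgeR 4.0.16 (R 4.3.3; filterByExpr, TMM, robust quasi-likelihood fit of all 12 libraries by group) tested 20279 genes, with Benjamini-Hochberg adjustment and a threshold of 0.05. Depth was 3601518 to 27202665 gene UMIs. Shares were tested with exact permutation tests (SciPy 1.17.1). Alternatives used DESeq2 1.42.0 and limma 3.58.1 (voom), other scalings and filters, cell subsets, cells thinned to 40000 UMIs (0 cells were below that) and libraries left out. The fit was tested on simulated data. No 2 libraries of a group agreed within counting noise. The same 96 barcodes label cells in every library. The members and lists were chosen with earlier results of these data known. Every member could be named; full statistics are given for Psma8, Psma7 and Psme4, for the other activators and immune beta genes, and for up to 10 called members per direction; of the other lists, up to 3 called genes per list and contrast with the smallest p; and the 3 members most like Psma8 and Psme4. Cluster levels use libraries with at least 5 cells. Some genes of the other lists are not reported here.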

Additional observations from a re-analysis of the deposited data

How the results depend on the processing

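The members called between KO and WT at 360 h (5, 3 higher and 2 lower) numbered 8 with upper-quartile scaling, with a filter of 10 CPM in 3 libraries, in a fit of the compared groups alone and in late pachytene cells alone, 2 (both lower) with spike-in scaling, and 1 to 8 with 1 library left out. Of all genes tested, 22.5% were called in the reported fit and with upper-quartile scaling, 35.3% with the 10 CPM filter, 32.5% in the compared groups, 34.9% in late pachytene cells, 18.4% with spike-ins and 11.8% to 18.8% with 1 library left out. The cause was not tested. Spike-in scaling put the median of all genes at -0.48 there, -0.28 at 260 h and 0.33 between times in WT, and upper-quartile scaling put it at 0.27 at 360 h, -0.36 between times in WT and -0.22 between times in KO. At 260 h 1 member was called with DESeq2 and 1 with no filter (Psmb11 in both), and 0 with 1 library left out. Between times in WT the 17 calls (7 higher) were 14 (11 higher) with spike-ins, 23 (7 higher) with upper-quartile scaling, 11 to 16 with 1 library left out, and 6 without the 2 libraries holding somatic transcripts, an alternative chosen after seeing the data. Between times in KO the 9 calls (6 higher) were 7 (6 higher) with spike-ins and 6 to 10 with 1 library left out. The interaction had 1 call each with DESeq2 and the 10 CPM filter (Psme4) and with no filter (Psme2b), and 0 to 1 with 1 library left out.

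The Psma8 share between times in KO was -2.71 percentage points without pre-meiotic cells. Signs turned for Psma8 at 360 h (0.13 upper quartile, 0.056 compared groups alone, 0.014 without pre-meiotic cells, 0.12 late pachytene cells), for Psma8 between times in WT (-0.17 upper quartile, -0.34 without pre-meiotic cells, -0.016 to 0.21 with 1 library left out), for Psma7 between times in KO (0.66 without pre-meiotic cells), for Psma7 at 260 h (-0.20 to 0.91 with 1 library left out) and for Psme4 between times in KO (-0.011 upper quartile, -0.18 without pre-meiotic cells, -0.016 to 0.20 with 1 library left out); none of these was called. Replicate numbers did not pair the libraries: same-numbered libraries had correlations of -0.207 to 0.151. With the replicate block the counts were 4, 0, 17, 11 and 0 for 360 h, 260 h, WT times, KO times and the interaction, and the Psme4 value at 360 h was -1.39.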

Other observations

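Psmb11, the beta gene of thymic proteasomes, had 218 UMIs in 49 of 929 cells. In pre-meiotic cells of 260 h it had 13.3, 53.4 and 8.64 CPM in KO and 2.92, 0.0 and 1.35 CPM in WT. All KO libraries were higher than all WT libraries there, and KO library 2 stood highest.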
